A study of Mus musculus with 2 samples.

Results

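The Ms4a genes code for small membrane proteins, and 8 of them were followed here through the cells of 2 single-cell RNA libraries: Ms4a7, Ms4a14, Ms4a4a, Ms4a4b, Ms4a4c, Ms4a6b, Ms4a6c and Ms4a6d. They were chosen by symbol from the 32285 genes of the count matrices, which hold 11 other genes whose symbol starts with Ms4a. The study asked how microglia-like cells form in the brain after transplantation of blood stem and progenitor cells with 1 or 2 working copies of Cx3cr1, the receptor for the chemokine fractalkine. Per the labels, one library came from the genotype Cx3cr1-/+ (heterozygous) and the other from Cx3cr1+/+ (wild type), both from tissue labelled CNS. The same protocol text stands under both: lineage-negative donor cells of Cx3cr1-/+ mice were sorted by GFP and injected into CD45.1 recipients that had received 4 doses of 25 mg/kg busulfan. How the wild-type donor cells were obtained, the number of animals, their ages and sexes and the time after transplantation are not given in the sources used here. With 1 library per genotype no test between genotypes was possible, so every interval below covers counting error only and no spread between animals.

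Ms4a proteins cross the membrane several times and most are found on blood and immune cells. The best known are CD20 (Ms4a1) on B cells and the beta chain of the high-affinity IgE receptor (Ms4a2) on mast cells and basophils. Ms4a4a associates with the pattern receptor dectin-1 on macrophages, and Ms4a4b was described on T and NK cells. Ms4a7 is known in brain studies as a gene of border-associated and blood-derived macrophages that resident microglia express weakly, and the human MS4A locus is tied to soluble TREM2 and to the risk of Alzheimer's disease.

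The members lie side by side on chromosome 19 of the GRCm38 mouse genome (mm10), within 303.601 kb from position 11301249 to 11604849. In chromosomal order these are Ms4a14 (ENSMUSG00000099398, chr19:11301249-11314454, minus strand), Ms4a7 (ENSMUSG00000024672, chr19:11321039-11336146, minus), Ms4a4a (ENSMUSG00000101389, chr19:11375523-11392790, plus) and Ms4a4c (ENSMUSG00000024675, chr19:11404770-11427246, plus). They are followed by Ms4a4b (ENSMUSG00000056290, chr19:11443553-11467055, plus), Ms4a6c (ENSMUSG00000079419, chr19:11469366-11482192, plus), Ms4a6b (ENSMUSG00000024677, chr19:11516512-11531256, plus) and, past Ms4a4d, Ms4a6d (ENSMUSG00000024679, chr19:11586604-11604849, minus). Genes with similar names are similar in sequence. The longest coding transcripts of Ms4a4b and Ms4a4c were 82.2% identical over 1650 aligned bases, and those of Ms4a6b and Ms4a6c 86.4% over 1192. These libraries read transcript ends, and of all 50-base windows in the last 500 bases of its transcripts, Ms4a4c shared 10.5% with Ms4a4b and Ms4a6c shared 6.10% with Ms4a6b. Reads that lie wholly in shared sequence cannot be given to 1 gene. The read length and the handling of such reads were not examined, so small levels of the weaker partner are uncertain.

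The likeness of each pair extends to part of the sequence upstream of the start sites. These stretches are shown because the first pair was highest in different cells and the second pair in the same cells. RefSeq windows of 250 bases before the start (GRCm38.p6) were matched for 7 of the 8 members. In the lines below the sequence runs 5′ to 3′ on the plus strand, and capitals mark bases that differ from the partner or have no counterpart in it.
Ms4a4c, chr19:11407533-11407659, plus strand: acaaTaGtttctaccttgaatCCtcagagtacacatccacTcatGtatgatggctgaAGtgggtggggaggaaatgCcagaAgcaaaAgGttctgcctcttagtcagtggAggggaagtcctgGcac
Ms4a4b, chr19:11443427-11443552, plus strand: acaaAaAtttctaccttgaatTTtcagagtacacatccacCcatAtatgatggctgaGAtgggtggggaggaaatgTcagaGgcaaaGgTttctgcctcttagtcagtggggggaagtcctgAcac
Ms4a6c, chr19:11469193-11469330, plus strand: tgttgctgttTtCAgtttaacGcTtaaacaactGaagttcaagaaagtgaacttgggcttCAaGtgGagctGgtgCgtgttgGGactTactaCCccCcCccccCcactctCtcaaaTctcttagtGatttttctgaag
Ms4a6b, chr19:11518311-11518452, plus strand: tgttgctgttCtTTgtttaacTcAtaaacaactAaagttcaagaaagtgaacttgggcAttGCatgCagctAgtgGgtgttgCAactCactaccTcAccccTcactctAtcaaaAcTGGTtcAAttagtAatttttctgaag
In the first pair 113 of 126 aligned bases were identical and in the second 115 of 135. The stretches of Ms4a4c and Ms4a6b lie within longer annotated transcripts, outside their exons. The next longest stretch that aligned between windows of any other members had 21 bases. The letters GAGGAA, searched on both strands as the core of the PU.1 site, stood once in the windows of Ms4a4c, Ms4a4b and Ms4a14 and in 23.3% of 32851 promoter windows.

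The heterozygous library had 17828344 UMIs (counted molecules) in 1837 barcodes and the wild-type library 22062823 in 2359. A barcode was kept as a cell when it had 500 or more genes and less than 10% of its UMIs from mitochondrial genes, which left 1489 and 1949, with medians of 6880 and 6637 UMIs. In both matrices 339 barcodes were listed, of which 255 and 198 were kept. A doublet caller (Scrublet) called 0 cells in each library and did not work on these data, so mixed cells remain. The libraries differ in sex-linked transcripts: 1054 heterozygous cells held Xist alone and 36 held Y-linked transcripts alone, against 230 and 780 wild-type cells, and 169 wild-type cells held both. The labels give the sex of neither host nor donor. Clustering without Ms4a and sex-linked genes gave 19 clusters in 16 classes, named from marker lists, with 4 clusters left unnamed and called by their 2 leading genes. The label "microglia-like" thus covers many cell types: the resident microglia-like class held 6.65% and 6.21% of the kept cells, and neutrophil-like cells 20.1% and 22.9%. Members were described in the 12 classes with at least 20 cells in each library. Cx3cr1 itself stood at 2687 and 2878 CPM (UMIs of the gene summed over the class and scaled to 1000000 UMIs) in resident microglia-like cells, which does not check the labels because the altered part of the gene is not given.

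Ms4a genes divided the classes between them (the heat map of levels). Ms4a7 and Ms4a14 were highest in the unnamed Gpnmb-Spp1 cluster, macrophages that carry C1q, Apoe and the lysosomal and matrix genes Gpnmb and Spp1. Ms4a4b was highest in NK cell-like cells, and Ms4a4c, Ms4a6b, Ms4a6c and Ms4a6d were highest in classical monocyte-like cells. In all, 7 of the 8 members had the same leading class in both libraries, which 52.9% of 11799 genes with at least 50 UMIs also had. Ms4a7 and Ms4a4b were at least 2-fold above the next class in each library, on values with 10 CPM added. That makes 2 of 8 members against 7.92% of all genes. For Ms4a7 this depends on the clustering: at a finer resolution of 1.0, border-associated macrophage-like cells formed a class of their own with 1102 and 632 CPM, against 1368 and 1219 in the Gpnmb-Spp1 cluster, which is under 2-fold in each library. The count stayed at 2 there because Ms4a4c passed instead. It was 393 and 373 CPM in classical monocyte-like cells, with next classes at 108 (Birc5-Cenpf, heterozygous) and 157 CPM (dendritic cell-like, wild type).

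**Figure D1:**
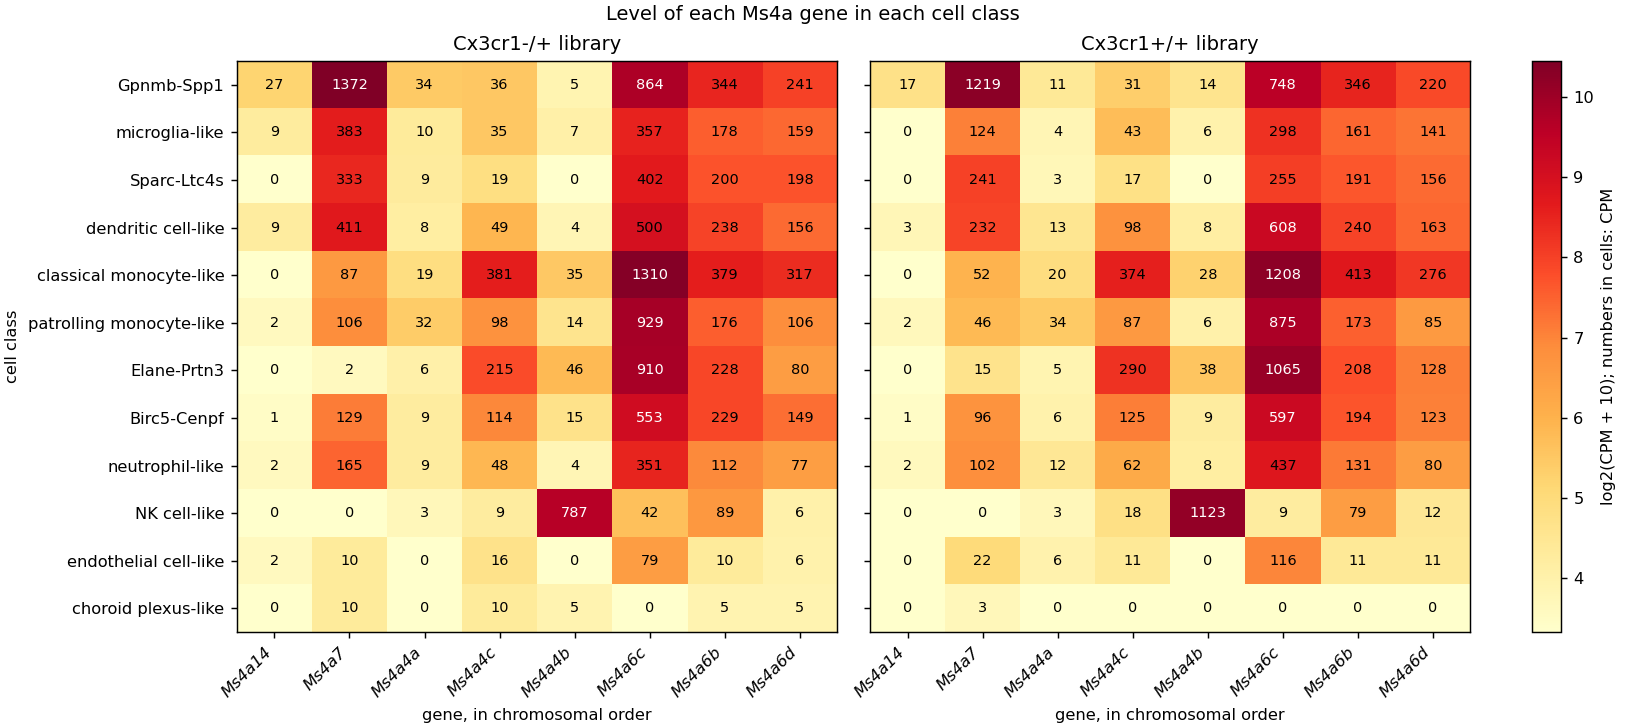
CPM of summed UMIs for each member (columns, in chromosomal order) in the 12 classes (rows), for the heterozygous library on the left and the wild-type library on the right; colour is log2(CPM + 10). Ms4a7 peaks in the Gpnmb-Spp1 row (1372 and 1219 CPM) and Ms4a4b in the NK cell-like row (787 and 1123 CPM), while Ms4a6c is spread over all monocyte and macrophage rows.

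Ms4a7 was highest in macrophage classes that carry C1q. In the heterozygous library its level was 1372 CPM (95% Poisson interval 1309 to 1436, 1796 UMIs in 146 cells) in the Gpnmb-Spp1 cluster. The next classes were conventional dendritic cell-like cells at 411 CPM (383 to 442), resident microglia-like cells at 383 (349 to 419) and the unnamed Sparc-Ltc4s cluster at 333 (280 to 392), a shallow cluster rich in C1q and microglial genes. The intervals of neighbours in this order overlapped. Below them came neutrophil-like cells at 165, the dividing Birc5-Cenpf cluster at 129, patrolling monocyte-like cells at 106 and classical monocyte-like cells at 87.4 CPM. In the wild-type library the order opened the same way, with 1219 CPM (1107 to 1339, 437 UMIs in 50 cells) in the Gpnmb-Spp1 cluster. There the Sparc-Ltc4s cluster at 241 CPM (204 to 284) and dendritic cell-like cells at 232 (213 to 252) overlapped, while resident microglia-like cells were lower at 124 (106 to 144). NK cell-like cells held 0 Ms4a7 UMIs in either library, which allows up to 8.91 and 8.77 CPM.

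Ms4a14, the neighbour of Ms4a7 on the chromosome, was a weak gene with the same leading class. It stood at 26.7 CPM (35 UMIs) and 16.7 CPM (6 UMIs) in the Gpnmb-Spp1 cluster, and at 8.56 and 3.36 CPM in dendritic cell-like cells. Resident microglia-like cells held 11 UMIs in the heterozygous library and 0 in the wild-type one, or 9.0 CPM (4.49 to 16.1) against a count of 0 that allows up to 2.17 CPM. In classical monocyte-like cells 0 UMIs were counted in both libraries. Ms4a4a was the member whose leading class differed between the libraries. It was at 33.6 CPM (24 to 45) in the heterozygous Gpnmb-Spp1 cluster against 31.7 (24 to 42) in patrolling monocyte-like cells, 2 values that overlap. In the wild-type library patrolling monocyte-like cells led with 33.9 CPM (28 to 41, 100 UMIs), and the Gpnmb-Spp1 cluster had 11.2 CPM on 4 UMIs.

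Ms4a4b and Ms4a4c, which share the stretch printed above, were high in different cells. Ms4a4b reached 787 CPM (695 to 887) and 1123 CPM (1014 to 1241) in NK cell-like cells, cytotoxic lymphocytes that kill virus-infected and tumour cells. The NK cell-like class held 63.5% and 64.3% of all Ms4a4b UMIs of kept cells, although it was 2.22% and 3.03% of those cells. Next came the Elane-Prtn3 cluster, which carries genes of granulocyte-monocyte precursors, at 46.5 and 37.6 CPM. Ms4a4c stood at only 8.91 and 17.5 CPM in NK cell-like cells. It led in classical monocyte-like cells, the Ly6C-high cells that leave the marrow and give rise to tissue macrophages, with 381 CPM (347 to 418) and 374 CPM (347 to 401). The Elane-Prtn3 cluster followed with 215 and 290 CPM and the Birc5-Cenpf cluster with 114 and 125. In resident microglia-like cells Ms4a4c was 35.2 and 43.5 CPM, and in the Gpnmb-Spp1 cluster 35.9 and 30.7.

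The 3 Ms4a6 members were broad myeloid genes led by classical monocyte-like cells in the main clustering. For Ms4a6b and Ms4a6d this depends on the processing. At resolution 1.0 Ms4a6b was 427 and 407 CPM in border-associated macrophage-like cells, against 376 and 412 in classical monocyte-like cells. Without the cell filter, border-associated macrophage-like cells led for both genes in each library. Ms4a6c was the most abundant, with 1310 CPM (1246 to 1376) and 1208 CPM (1160 to 1257) in classical monocyte-like cells. It stood at 929 and 875 CPM in patrolling monocyte-like cells and at 910 and 1065 in the Elane-Prtn3 cluster. The Gpnmb-Spp1 cluster had 864 and 748 CPM. Resident microglia-like cells held 357 and 298 CPM, NK cell-like cells 41.6 and 8.77. These are levels by counted molecules, so genes can be set beside one another without a length correction, apart from reads shared between paralogs. Ms4a6b stood at 379 CPM (345 to 415) and 413 (385 to 443) in classical monocyte-like cells and at 344 (313 to 378) and 346 (288 to 412) in the Gpnmb-Spp1 cluster, so these top classes overlapped in each library. Of this group it was the member with the most UMIs in NK cell-like cells, at 89.1 and 79.0 CPM. Ms4a6d had 317 CPM (286 to 350) and 276 (254 to 300) in classical monocyte-like cells, then 241 (215 to 269) and 220 (174 to 275) in the Gpnmb-Spp1 cluster. Across the 24 values of 12 classes and 2 libraries, log2 levels of Ms4a6b and Ms4a6d correlated with Pearson r = 0.92 and those of Ms4a4b and Ms4a4c with r = 0.07. The points share libraries and cells, so these are descriptions.

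Single cells were compared at one depth, each thinned to 2000 UMIs, beside a reference class, because free RNA in a droplet gives stray UMIs. Neutrophil-like cells, one such reference, did not lack Ms4a6c. They held 351 and 437 CPM of it, and their cluster led by Olfm4 and Ltf held 150 and 137 CPM. The source of these UMIs was not tested, so what the neutrophil-like shares measure is not known. Ms4a7 was found in 81.4% of 140 heterozygous and 86.4% of 44 wild-type Gpnmb-Spp1 cells, with 6 shallower cells left out of each. It was in 0 of 26 and 0 of 51 NK cell-like cells, with exact intervals up to 13.2% and 6.98%. Ms4a4b was in 69.2% of 26 and 72.5% of 51 NK cell-like cells against 0.712% and 0.480% of neutrophil-like cells. In classical monocyte-like cells Ms4a6c was found in 89.4% and 84.3%, against 33.8% and 40.5% of neutrophil-like and 2 of 54 and 3 of 20 endothelial cell-like cells. There Ms4a4c was in 51.8% and 46.4% against 7.12% and 5.76% of neutrophil-like cells, and Ms4a6b in 58.8% and 45.8% against 16.7% and 15.6%. Ms4a6d was in 42.4% and 38.6% of classical monocyte-like cells and in 3.85% and 3.92% of NK cell-like cells. Each share is of the class in which the member was highest in these same cells, so a share above the reference is a description. The exact (Clopper-Pearson) intervals of Ms4a14 (7.14% and 4.55%) and Ms4a4a (10.0% and 6.36%) overlapped the reference, so no difference in share was detectable at this depth. The shares depend on the depth chosen: in heterozygous classical monocyte-like cells Ms4a6b was found in 25.6% at 1000 UMIs and 93.4% without thinning, and Ms4a4c in 32.6% and 89.0%. Without thinning Ms4a7 was in 93.8% and 98.0% of Gpnmb-Spp1 cells, at medians of 6886 and 5856 UMIs, against 7349 and 4811 in NK cell-like cells.

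Between the libraries, most members stayed within 1.5-fold in a class and Ms4a7 often did not. Of 48 pairs of member and class with at least 50 UMIs and a mean of 20 CPM, 6 were more than 1.5-fold higher in the heterozygous library and 2 lower, and 5 of the 6 higher pairs were Ms4a7. By class, the members beyond 1.5-fold were 1 of 5 in resident microglia-like cells, against 6.63% of all genes tested there, 1 of 6 in patrolling monocyte-like cells (3.13%), and 1 of 6 in classical monocyte-like cells (6.15%). They were 1 of 5 in neutrophil-like cells (2.77%), 2 of 5 in dendritic cell-like cells (6.26%), 1 of 4 in the Sparc-Ltc4s cluster (8.84%) and 1 of 4 in the Elane-Prtn3 cluster (12.3%). They were 0 of 5 in the Gpnmb-Spp1 cluster (15.4%) and 0 of 5 in the Birc5-Cenpf cluster (15.4%). The Birc5-Cenpf count depends on the processing: Ms4a7 was within 1.5-fold there (1.35, 1.05 to 1.73) but beyond it in 4 of 9 alternatives. The other pairs tested were within 1.5-fold, 0 of 2 beyond it in NK cell-like cells (16.9% of all genes) and 0 of 1 in endothelial cell-like cells (23%). No member was tested in ependymal or choroid plexus-like cells (27.8%). With 4 to 6 members per class, 1 member makes a share well above each background, so these counts say little about the family as a whole. The median log2 ratio of the members was 0.17 in resident microglia-like cells, beside 0.02 over all genes tested, and -0.22 beside -0.12 in neutrophil-like cells. Among classes with 4 to 6 members tested, it lay farthest from all genes in the Sparc-Ltc4s cluster, at 0.40 beside -0.01. The Elane-Prtn3 cluster followed with -0.33 beside -0.003 and the Birc5-Cenpf cluster with 0.24 beside 0.006.

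**Figure D2:**
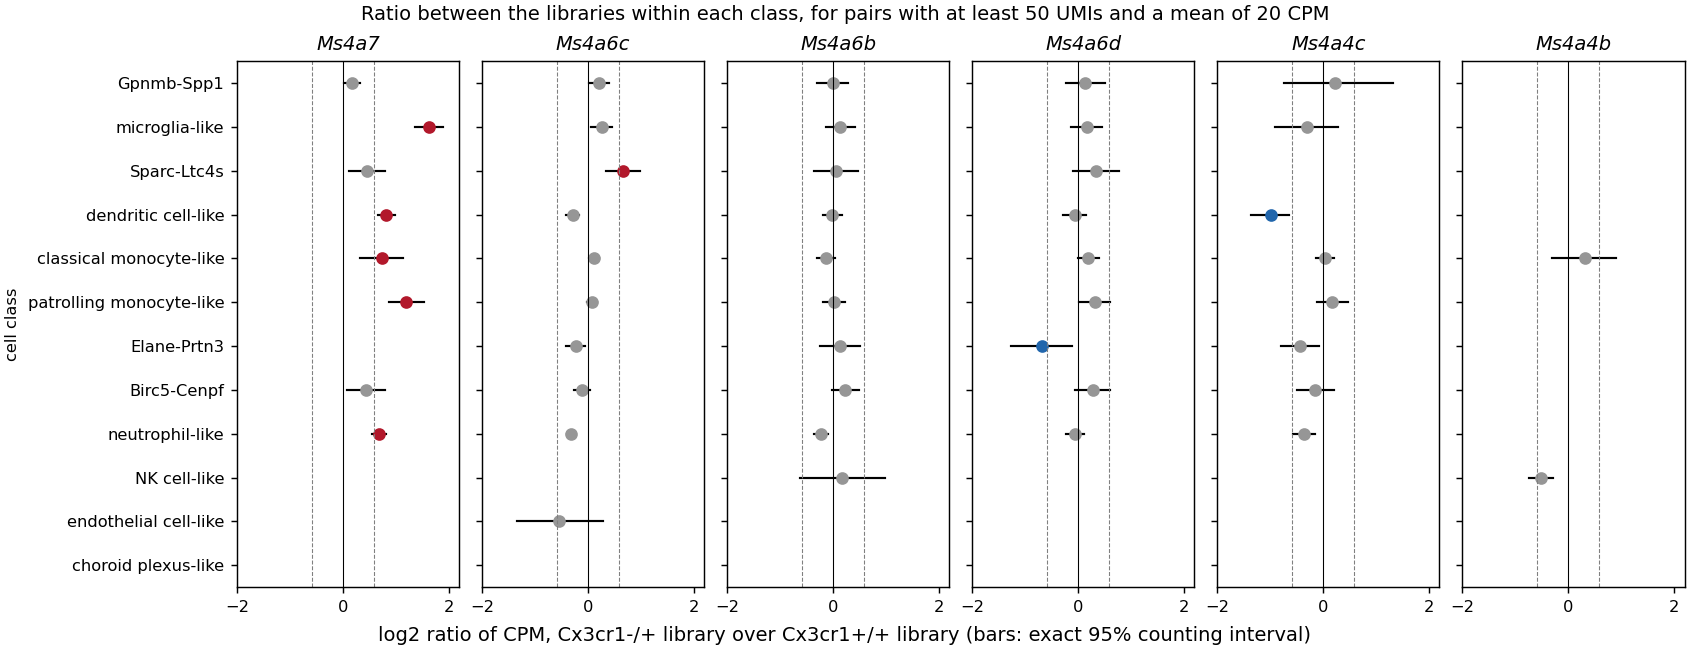
Log2 ratio of CPM, heterozygous over wild type (horizontal axis), for 6 members within each class; bars are exact 95% counting intervals and dashed lines mark 1.5-fold. Ms4a7 lies beyond the upper line in resident microglia-like (3.09-fold), patrolling monocyte-like (2.30-fold) and 3 other classes, and near 0 in the Gpnmb-Spp1 cluster (1.13-fold).

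In resident microglia-like cells Ms4a7 stood at 383 CPM (heterozygous) and 124 CPM (wild type), a ratio of 3.09 (2.59 to 3.70). The other members tested there had log2 ratios of -0.30 (Ms4a4c), 0.14 (Ms4a6b), 0.26 (Ms4a6c) and 0.17 (Ms4a6d). The difference sat in few cells. In the heterozygous library 21 of 99 cells held 5 or more Ms4a7 UMIs and together 445 of the 468 UMIs of the class. In the wild-type library 15 of 121 cells held 135 of 171. Most cells, 65 and 87, held 0. The cells with 5 or more were deep, at medians of 19534 and 22014 UMIs against 6384 and 6240 in the cells with 0, and had Apoe at 26037 and 20701 CPM against 4093 and 1440. Their microglial gene P2ry12, a purine receptor, stood at 877 and 1245 CPM against 1487 and 1479, and C1qa at 6643 and 6696 against 6487 and 6306. Over the whole class Gpnmb was 84.3 and 1.45 CPM and Spp1 704 and 84.0, both higher in the heterozygous library as Ms4a7 was. The part of cells of mixed identity in the Ms4a7 difference was not tested.

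**Figure D3:**
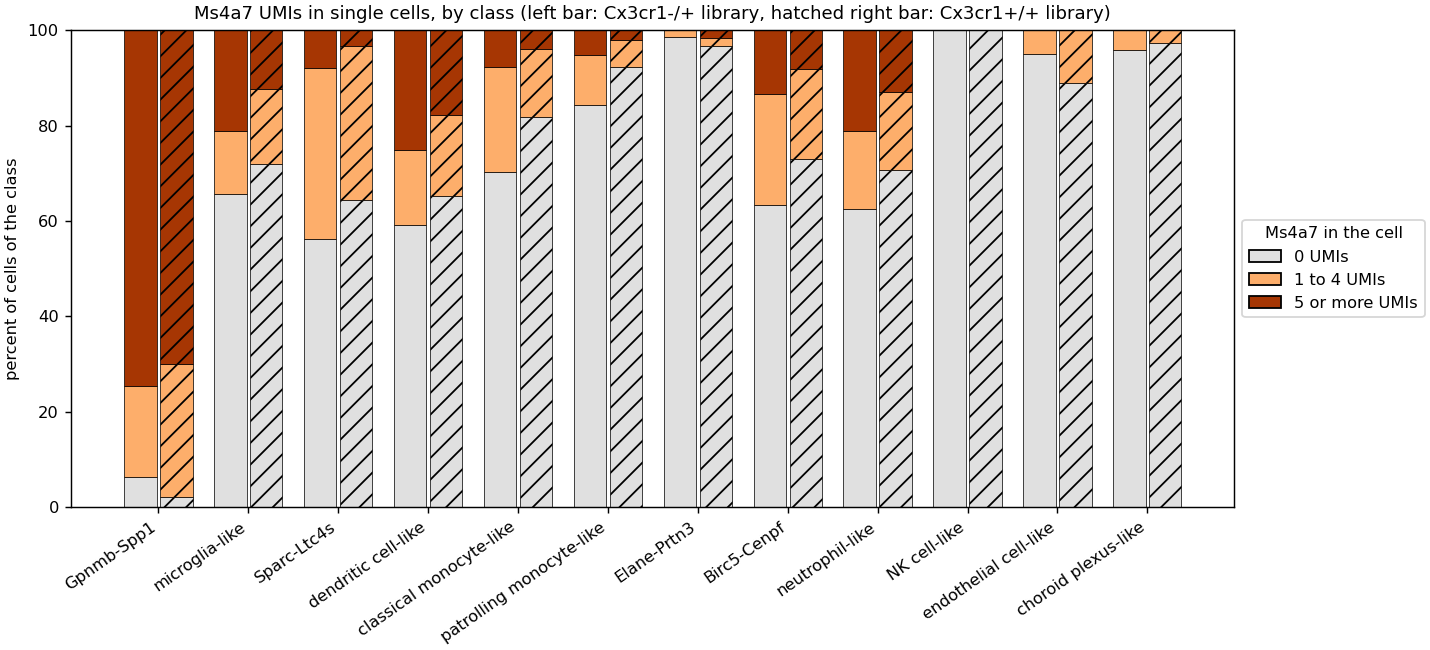
Percent of cells (vertical axis) with 0, 1 to 4, or 5 and more Ms4a7 UMIs in each class, unthinned; the left bar of each pair is the heterozygous and the hatched right bar the wild-type library. Cells with 5 or more make up 74.7% and 70.0% of the Gpnmb-Spp1 cluster and 21.2% and 12.4% of resident microglia-like cells.

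Sex-linked transcripts divided the wild-type library, so the libraries were also compared in cells with Xist UMIs and no Y-linked UMI, a choice made after seeing the data. The marks fell unevenly over the wild-type classes. Xist alone and Y-linked transcripts alone were in 86 and 1 resident microglia-like, 1 and 113 classical and 14 and 253 patrolling monocyte-like cells. In the Gpnmb-Spp1 cluster they were in 6 and 21 wild-type and 138 and 0 heterozygous cells. Host and donor cells could not be told apart, so cells of one mark need not be of like origin in the libraries. In resident microglia-like cells 95 of 99 heterozygous and 86 of 121 wild-type cells had this mark, and the Ms4a7 ratio among them was 3.87 (3.05 to 4.96), from 372 and 96.2 CPM. In dendritic cell-like cells the direction turned. Over the whole class Ms4a7 was 411 and 232 CPM, 1.77-fold higher in the heterozygous library (1.59 to 1.98), but among Xist-marked cells it was 430 CPM in 127 heterozygous and 688 CPM in 28 wild-type cells, a ratio of 0.624 (0.530 to 0.739). Within the wild-type dendritic cell-like class, the 99 Y-marked cells held 129 CPM of Ms4a7 and the 28 Xist-marked cells 688. Markers of other cells differed in the same direction, with C1qa at 1887 and 5538 CPM and P2ry12 at 32.2 and 142, as did Ms4a6b (185 and 400) and Ms4a6d (132 and 331). The part of the cell types in each mark in these differences was not tested. Ms4a4c went the other way there, with 108 CPM in Y-marked and 23.1 CPM in Xist-marked cells. Whole-class Ms4a4c was 49.2 and 98.0 CPM, a ratio of 0.502 (0.390 to 0.642). That direction also turned among Xist-marked cells, to a log2 ratio of 1.06, which rests on 6 UMIs in the 28 wild-type cells.

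**Figure D4:**
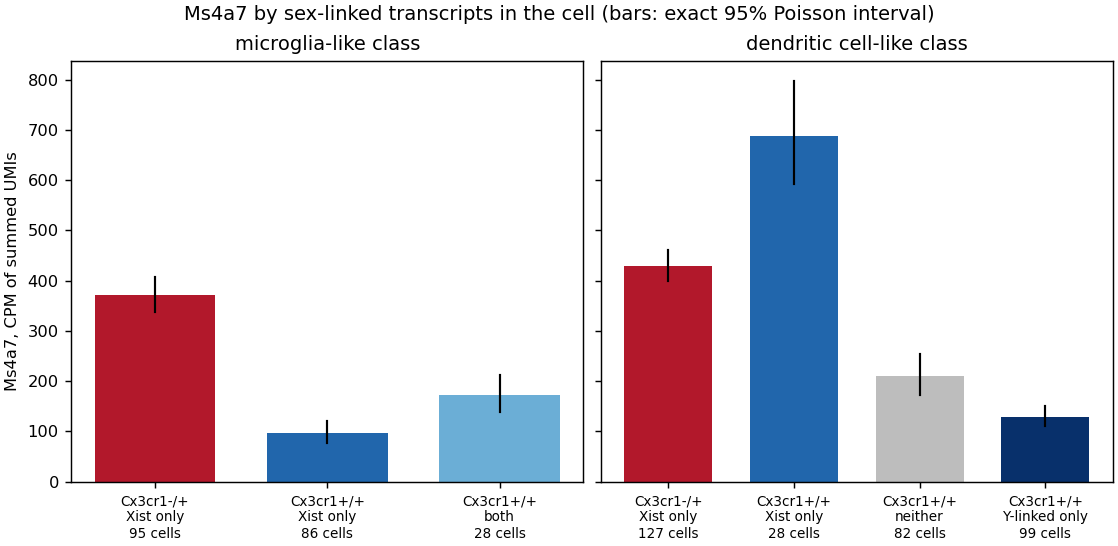
Ms4a7 CPM (vertical axis) in cells grouped by sex-linked transcripts, for resident microglia-like and dendritic cell-like cells of each library; bars are exact 95% Poisson intervals and groups under 20 cells are left out. Wild-type dendritic cell-like cells differ by mark, at 688 CPM with Xist alone and 129 CPM with Y-linked transcripts alone.

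The dendritic cell-like class held more than dendritic cells. At a finer clustering (resolution 1.0) a border-associated macrophage-like class of 48 heterozygous and 47 wild-type cells appeared, of which 46 and 45 came from the dendritic cell-like class. It was led by Ccl7, Lyve1, Cd209f and Cbr2, genes of macrophages of the brain's vessels and coverings. Ms4a7 in those cells was 1102 and 632 CPM, a ratio of 1.74 (1.52 to 2.0). In the dendritic cell-like class of the finer clustering, 109 and 163 cells of which 104 and 145 had that name before, it was 147 and 129 CPM, a ratio of 1.14 (0.929 to 1.39). That ratio joins 2 unlike clusters. One, of 68 and 63 cells, was led by Ctsk, Acp5 and Atp6v0d2, genes known from osteoclasts, with H2-Eb1 as the dendritic gene among its 10 leading genes, and its name is doubtful. There Ms4a7 was 194 CPM (161 to 232) and 346 CPM (297 to 401), lower in the heterozygous library. This cluster was shallow, with a median of 3122 UMIs over both libraries, and 35.9% of its barcodes were listed in both. The other, of 41 and 100 cells, was led by Ccl17, Cd209a and Mmp12 and held 92.4 CPM (68.6 to 122) and 42.1 CPM (31.7 to 55.0), higher in the heterozygous library.

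Neutrophil-like and monocyte-like clusters with the most C1q, a complement protein made by macrophages, also held the most Ms4a7. Ms4a7 in neutrophil-like cells was 165 and 102 CPM (ratio 1.61, 1.47 to 1.76). The neutrophil-like cluster led by Camp and Fcnb had C1qa at 2384 and 2051 CPM, medians of 23184 and 20448 UMIs, and Ms4a7 at 205 and 118 CPM. The neutrophil-like cluster led by Olfm4 and Ltf had C1qa at 276 and 296 CPM and Ms4a7 at 7.10 and 20.04. Ms4a7 did not follow C1q in all of them: the neutrophil-like cluster led by Cstdc4 and Stfa1 had C1qa at 392 and 1293 CPM and Ms4a7 at 35.6 and 17.3. The 187 and 316 neutrophil-like cells with 0 Ms4a7 UMIs held C1qa at 1154 and 1048 CPM. Patrolling monocyte-like cells, vessel-crawling monocytes, showed the same division: their large cluster had C1qa at 132 and 146 CPM with Ms4a7 at 12.8 and 9.51, and their small one C1qa at 3174 and 2951 with Ms4a7 at 378 and 211. Over all patrolling monocyte-like cells Ms4a7 was 106 and 46.1 CPM (ratio 2.30, 1.82 to 2.91), and over classical monocyte-like cells 87.4 and 52.4 (1.67, 1.26 to 2.21). With cells over 2000 CPM of C1q left out, also chosen after seeing the data, the Ms4a7 log2 ratio was -0.15 in neutrophil-like, 0.76 in patrolling and 0.40 in classical monocyte-like cells. In the first pair of classes too few Ms4a7 UMIs were then left for the 50-UMI or 20-CPM minimum.

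Beyond Ms4a7, Ms4a6c was 402 and 255 CPM in the Sparc-Ltc4s cluster, 1.58-fold higher in the heterozygous library (1.26 to 1.98). Ms4a6d was 0.627 of the wild-type level in the Elane-Prtn3 cluster (0.416 to 0.93), a cluster with median depths of 1745 and 1626 UMIs in which 78.8% and 73.3% of barcodes were listed in both libraries. Ms4a4b in NK cell-like cells was 0.701 of the wild-type level (0.597 to 0.821), within 1.5-fold. In the Gpnmb-Spp1 cluster Ms4a7 differed by 1.13-fold (1.01 to 1.25), while the cluster itself was 9.81% of heterozygous and 2.57% of wild-type cells.

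Cells that held Ms4a7 were also asked for the other members, again thinned to 2000 UMIs. In heterozygous Sparc-Ltc4s cells Ms4a6b was found in 52.0% of 25 cells with Ms4a7 (31.3% to 72.2%) and 16.1% of 56 without (7.62% to 28.3%), intervals that do not overlap. In wild-type Sparc-Ltc4s cells the shares were 30.8% of 26 and 26.7% of 86. In the heterozygous Gpnmb-Spp1 cluster Ms4a6c was in 77.2% of cells with and 80.8% of cells without Ms4a7, and Ms4a6b in 47.4% and 46.2%. Dendritic cell-like cells of the wild-type library held Ms4a6d in 43.8% of 48 cells with Ms4a7 and in 23.0% of 135 without, with overlapping intervals. Many such comparisons were made, over all other members and several classes. Only that of Ms4a6b in heterozygous Sparc-Ltc4s cells had intervals apart.

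Genes outside the family whose log2 levels followed a member most closely over the 24 values were sought among 8647 genes. For Ms4a7 these were Stab1, a scavenger receptor (r = 0.97), Mrc1, the mannose receptor (0.96), and Bst2, the antiviral protein tetherin (0.95). For Ms4a4b they were Klrb1f (0.95), an NK receptor, Ptprcap (0.93) and Cd2 (0.93), an adhesion receptor of lymphocytes. For Ms4a4c they were Lgals3 (0.95), Emilin2 (0.93) and Lilra6 (0.92), and for Ms4a4a Nlrc4 (0.89), Clec4n (0.87) and Apoc2 (0.86). The Ms4a6 members were closest to Cotl1, Fam49b and Ucp2 (Ms4a6b, 0.94 to 0.97), Fes, Csf2ra and Rab32 (Ms4a6c, 0.95) and Mpeg1, Fcgr2b and Evi2a (Ms4a6d, 0.95). Receptors that Ms4a proteins are reported to join, Trem2, Tyrobp, Fcer1g, Fcgr1, Fcgr2b, Fcgr3 and Fcgr4, were within 1.5-fold in each of 7 of 7 tests in resident microglia-like, dendritic cell-like, neutrophil-like, classical and patrolling monocyte-like cells. They were also within it in 6 of 6 tests each in the Gpnmb-Spp1 and Sparc-Ltc4s clusters. Some of these ratios lay near the cutoff. Fcgr4 was 0.667 (0.611 to 0.727) in neutrophil-like cells. Trem2 was 1.46 (1.26 to 1.69) in patrolling monocyte-like cells and 1.47 (1.34 to 1.62) in the Gpnmb-Spp1 cluster. In the other classes 5 were beyond 1.5-fold. Fcer1g was lower in heterozygous endothelial cell-like cells (386 against 727 CPM) and Fcgr4 in the Birc5-Cenpf cluster (29.3 against 66.4). Trem2 was lower in the Elane-Prtn3 cluster (61.2 against 128). Tyrobp (164 against 75.4) and Fcer1g (139 against 63.8) were higher in ependymal or choroid plexus-like cells. Such calls were common in those classes, at 23% of all genes in endothelial, 15.4% in Birc5-Cenpf, 12.3% in Elane-Prtn3 and 27.8% in ependymal or choroid plexus-like cells. In the last class 75% of heterozygous and 100% of wild-type barcodes were listed in both libraries. Its calls rest on few UMIs, 33 and 26 of Tyrobp and 28 and 22 of Fcer1g. Tmem176a and Tmem176b, whose proteins resemble Ms4a proteins, were higher in heterozygous patrolling monocyte-like cells (138 against 64.7 and 153 against 77.5 CPM), where 3.13% of all genes were beyond 1.5-fold. Both were lower in heterozygous endothelial cell-like cells (81.4 against 248 and 142 against 490 CPM).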

How the data were processed

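The deposited files hold UMI counts per gene and cell barcode, 1 matrix for each of 2 10x 3′ libraries, 1 per genotype; the alignment was to mm10 with Cell Ranger 4.0 per the submitters' processing notes, while the matrices name version 5.0.0 per the file headers. From these deposited counts, barcodes with 500 or more genes and less than 10% of UMIs from mitochondrial genes were kept as cells and both libraries were clustered together in scanpy 1.11.5 (2000 variable genes, 30 components, 15 neighbours, Leiden resolution 0.5), leaving out Ms4a and sex-linked genes. A cluster took the name of the marker list with the most genes among its 10 leading genes. That list also needed at least 3 genes that were 1.5-fold above the other cells and found in 10% of the cluster. No other list could have more such genes. The Gpnmb-Spp1 cluster stayed unnamed because the damage-response macrophage list, with 4 leading genes, had 6 such genes against 9 of the C1q macrophage list. Members, lists and the naming rule were chosen with earlier results of these data known. Scrublet called no doublets, and none were removed. Levels are summed UMIs scaled to 1000000 (CPM) per class and library with exact Poisson intervals; ratios have exact conditional binomial intervals, and shares exact Clopper-Pearson intervals at 95%, all covering counting error only. The CPM that a count of 0 allows is given as that of 3 UMIs. A gene was called beyond 1.5-fold in either direction from at least 50 UMIs over both libraries and a mean of at least 20 CPM. No test between genotypes was possible with 1 library each. All 8 members are named, and for each with at least 200 UMIs the 3 genes outside the family with the highest correlation of log2(CPM + 10) over classes and libraries. Alternatives changed the filter, clustering, scaling (edgeR 4.0.16 for TMM), thinning and minimum. Only the ratio step was tested on simulated counts, for the resident microglia-like class and the Gpnmb-Spp1 cluster. The planted changes were larger than 1.5-fold, so calls near that cutoff were not tested. Promoter sequences are from RefSeq and positions from GENCODE on GRCm38.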

Additional observations from a re-analysis of the deposited data

Results flagged for a closer look

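Members of the family outside the 8 studied gave clear signal in cells that the comparisons between libraries did not use, above the level that a count of 0 allows. Ms4a1, which codes for CD20, was 810 CPM (605 to 1062) in 14 B cell-like cells of the heterozygous library and 822 CPM (606 to 1090) in 10 of the wild-type library, and 86.7% and 87.3% of its UMIs lay in those cells. Ms4a2, the beta chain of the IgE receptor, was 469 CPM (389 to 560) and 699 CPM (567 to 853) in mast cell or basophil-like cells, 14 in each library, which held 99.2% and 100% of its UMIs. Ms4a3, a gene of granulocyte-monocyte precursors, was 321 CPM (256 to 398) and 663 CPM (534 to 813) in the same cells and 359 CPM (307 to 417) and 164 CPM (135 to 198) in the Elane-Prtn3 cluster. The difference in Ms4a3 between libraries ran in opposite directions in these classes and was not tested.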

How the results depend on the processing

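No paired analysis was possible because each genotype has 1 library, and for the same reason no replicate could be left out. The count of members with the same leading class, 7, ranged from 5 to 8 over the alternatives. The count at least 2-fold above the next class in each library, 2, ranged from 0 to 3. It was 0 among Xist-marked cells, where only 3 classes were compared. With each library clustered alone, 6 classes were compared, without the Gpnmb-Spp1 cluster. Ms4a7 then led in resident microglia-like cells of the heterozygous and dendritic cell-like cells of the wild-type library. At resolution 1.0 border-associated macrophage-like cells led for Ms4a14 and Ms4a6b in the heterozygous library and for Ms4a4a in the wild-type one. Without the cell filter they led for Ms4a6b and Ms4a6d in both libraries. The count of pairs beyond 1.5-fold, 8, was 5 when cells needed 1000 genes and less than 5% of UMIs from mitochondrial genes, and 21 (14 higher, 7 lower) with a minimum of 10 UMIs and no CPM minimum, where more pairs, 70, were tested. The log2 ratio of Ms4a7 in resident microglia-like cells stayed beyond 1.5-fold in 14 of 14 alternatives, from 1.23 to 2.22, and that in the Gpnmb-Spp1 cluster within it in 11 of 11. Ms4a7 was beyond it in 11 of 14 for dendritic cell-like and neutrophil-like cells, 10 of 13 for patrolling and 7 of 13 for classical monocyte-like cells, and 4 of 9 for the Birc5-Cenpf cluster, with log2 ratios up to 1.34. Of 32 shares at another depth (1000 UMIs or no thinning), 27 moved beyond their interval. Directions turned in 6 cases. With the stricter cell filter Ms4a7 in classical monocyte-like cells was -0.068 and Ms4a6d in the Elane-Prtn3 cluster 0.056, and the latter was 1.21 without cells over 20000 UMIs. Without cells over 2000 CPM of C1q Ms4a7 in neutrophil-like cells was -0.15. In Xist-marked dendritic cell-like cells Ms4a7 was -0.68 and Ms4a4c 1.06, the latter on 6 wild-type UMIs. The cause was not tested. TMM and median-of-ratios scaling moved log2 ratios by under 0.1, except by -0.27 and -0.29 in ependymal or choroid plexus-like cells, where no member was tested.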
